A study of Mus musculus with 28 samples.

Results

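The levels of 10 genes of astroglial metabolism and transport were followed across mouse fibroblasts, neural stem cell lines induced from fibroblasts, and neural stem cells. They are Slc1a3, Slc1a2, Glul and Slc25a18 (glutamate uptake and recycling), Aldoc and Aldh1l1 (glycolysis and folate metabolism), Fabp7 (fatty acid binding), Agt and Sparcl1 (secreted proteins) and S100b (calcium binding). The members were chosen by name, with earlier results of these data known. All 10 were among the 17295 genes of the deposited expression table. All 10 also passed the filter on low values (mean over the 28 libraries not under 10) and so stood among the 16275 genes tested.

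Messenger RNA was measured in 28 libraries, 2 for each of 14 groups, to compare induced cells with their source and with neural stem cells. The 10 induced groups (miNSC) had been made from fibroblasts by lentiviruses carrying doxycycline-inducible transcription factors, followed by picking and expansion of colonies. Each cocktail contained F, which is eSox17FNV, an engineered form of the transcription factor Sox17. The letters B, K and M stand for the other factors, whose names the labels do not spell out, and the cocktail called 4F contained B, K, M and F.

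The ICR lines, BKF and KF, came from embryonic fibroblasts of ICR mice. All other groups came from the Sox2-GFP reporter strain. Its embryonic fibroblasts were the source of lines with KF, BKF and KMF. Fibroblasts from the tail tip of 1.0-year animals were the source of lines with BKF and KMF and of a 4F line, sampled at passage 8 and again at passage 18, and ear fibroblasts of 1.0-year animals gave another 4F line. Groups without factors were tail-tip fibroblasts at 1.0 and 2.5 years, skin fibroblasts at 2.5 years, and neural stem cells (NSC) of 2.5-year animals. The NSC pair consisted of 1 library of passage 2 and 1 of passage 5. For the other miNSC lines no passage was given. Libraries of a group may derive from 1 picked colony or 1 culture, so a p-value here reflects no more than the spread among these libraries, which may be technical. Of the miNSC lines, those of the tail tip alone had fibroblasts of their own tissue and age among the libraries used here.

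Astrocytes take up the glutamate released at synapses through sodium-driven transporters and turn it into glutamine, which returns to neurons. They also use a brain isoform of aldolase, a cytosolic folate dehydrogenase and fatty acid binding proteins, and they secrete angiotensinogen and matrix proteins. Cultured neural stem cells and radial glia share several of these genes with astrocytes, so the genes mark an astroglial programme rather than 1 cell type.

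The values were whole-number scores that the authors had normalised, with library totals from 15563679 to 15571626, and the sequencing depth behind them is unknown. Every library held the same 1317 distinct values, and 10 genes per library shared the highest, 92914, which hides differences among those genes. The next distinct value was 42162, so a gene that leaves the highest value falls to that or less, whatever its true change. The NSC pair differed by a median of 0.37 in absolute log2 value, against 0.08 to 0.21 in the other groups. Summed over 10 fibroblast markers, libraries of fibroblasts stood at 216989 to 235117, of miNSC at 544 to 3768 and of NSC at 377 to 519. For 10 neural stem cell markers the sums were 68 to 141, 20466 to 50854 and 27084 to 27758. Of these markers, Nes and Olig2 had the highest medians, higher in miNSC (8538 and 14103.5) than in NSC (6415 and 10401). Medians of the others were lower in miNSC, among them Sox1 (16 against 1093.5) and Nr2e1 (32.5 against 577.5). The other astrocyte markers, 11 of 12 listed being in the table, summed to 5233 to 6938, 11106 to 46530 and 69254 to 91984. In fibroblasts most of that sum was Gja1 (4710 to 6575). Neuronal markers (9 of 10 in the table) summed to 717 to 2783, 16706 to 33833 and 38201 to 95359. Map2 alone made up most of this sum in miNSC (15161 to 32716) and NSC (32716 to 92914). Stmn2 went the other way, with a median of 257 in fibroblasts and 0 in miNSC. In bulk samples, fewer cells of a type and less RNA per cell cannot be told apart.

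Log2 fold changes below are differences of group means of log2(value + 1) with their standard error (SE), a scale that understates the change of low genes. Adjusted p-values come from limma with Benjamini-Hochberg adjustment over all 16275 genes, and a gene was called at an adjusted p below 0.05. Where several groups are averaged, as for miNSC against fibroblasts, the SE and p-value leave out the spread between those groups. The standard deviation of log2 group means was largest for Agt, 2.56 over miNSC and 2.27 over fibroblast groups. For Sparcl1 it was 1.56 and 1.88.

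Promoter sequences are shown for Agt, Slc1a2, S100b and Aldh1l1, because these members rose from passage 8 to passage 18 of the tail-tip 4F line (values below) and have a window in the promoter table of RefSeq (GRCm38.p6). Each line gives the 250 bases before a RefSeq start, read along the gene's own strand. Capitals mark matches on either strand to TTGGC (the core bound by NFI factors of glial genes), TGGGAA (the RBPJ core of Notch signalling), TTCNNNGAA (the STAT core of cytokine signalling) or TATAAA (the TATA box). Sparcl1, which rose with them, has no window in the table.
Agt, chr8:124569707-124569956, minus strand: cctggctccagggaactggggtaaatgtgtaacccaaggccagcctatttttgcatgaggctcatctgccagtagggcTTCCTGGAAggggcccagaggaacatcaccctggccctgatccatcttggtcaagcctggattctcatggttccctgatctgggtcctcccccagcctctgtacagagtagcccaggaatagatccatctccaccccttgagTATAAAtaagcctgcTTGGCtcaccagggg
Slc1a2, chr2:102706188-102706437, plus strand: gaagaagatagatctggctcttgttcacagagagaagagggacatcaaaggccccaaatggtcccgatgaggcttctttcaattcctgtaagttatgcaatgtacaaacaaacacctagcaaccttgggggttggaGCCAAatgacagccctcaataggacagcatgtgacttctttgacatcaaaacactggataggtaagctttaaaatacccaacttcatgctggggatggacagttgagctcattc
S100b, chr10:76253586-76253835, plus strand: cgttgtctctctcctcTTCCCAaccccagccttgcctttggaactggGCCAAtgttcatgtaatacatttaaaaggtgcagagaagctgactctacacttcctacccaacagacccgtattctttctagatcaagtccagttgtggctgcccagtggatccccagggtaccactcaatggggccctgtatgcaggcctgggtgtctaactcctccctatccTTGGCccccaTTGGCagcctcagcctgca
Aldh1l1, chr6:90550543-90550792, plus strand: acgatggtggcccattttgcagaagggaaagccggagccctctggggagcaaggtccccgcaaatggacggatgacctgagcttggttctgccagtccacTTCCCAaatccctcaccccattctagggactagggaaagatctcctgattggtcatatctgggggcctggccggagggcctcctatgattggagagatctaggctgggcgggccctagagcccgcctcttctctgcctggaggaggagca
The Agt window ends at the base before the GENCODE M21 start of the gene, and the S100b window lies 17 bases short of one. The windows of Slc1a2 and Aldh1l1 lie inside the annotated gene at a downstream start, and 29 and 4 of their bases lie in annotated exons of the gene. In Agt, TATAAA begins 30 bases and TTGGC 15 bases before the start, with TTCNNNGAA at 172. S100b holds TTGGC at 203, 29 and 19 bases before the start and TGGGAA at 234, Slc1a2 holds TTGGC at 114, and Aldh1l1 holds TGGGAA at 150. None of these matches overlap each other.

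Over the 9 members with a window, which have 10 windows because Aldoc has a pair, TTGGC occurred in 6 windows, and it occurred in 41.5% of all 32851 windows of that length. TGGGAA was in 5 member windows (21.6% of all), TTCNNNGAA in 3, those of Agt, Aldoc and Slc1a3 (7.02% of all, with 1 Aldoc window), and TATAAA in 3, those of Slc25a18, Agt and Slc1a3 (12.4% of all). The SOX cores ACAAAG (16.5% of all) and ACAATG (10.7% of all) and the NFI palindrome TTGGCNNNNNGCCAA (0.0365% of all), which contains the TTGGC core, were in 0 of the 10. A match describes letters in a window and is not a binding site.

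Slc1a3 encodes GLAST, a sodium-driven glutamate transporter of radial glia and astrocytes (ENSMUSG00000005360, GRCm38 chromosome 15, 8634124 to 8710764, minus strand). Its values were 438 and 410 in tail-tip fibroblasts of 1.0 years, 488 and 463 in those of 2.5 years and 90 and 88 in skin fibroblasts. The 20 miNSC libraries ran from 10340 to 21808 with a median of 16127, and the NSC stood at 28063 at passage 2 and 10893 at passage 5. Every miNSC and NSC library was above every fibroblast library. Slc1a3 rose in miNSC over fibroblasts (log2 fold change 5.92 ± 0.12, adjusted p = 4.65e-17). Against NSC the difference of -0.13 ± 0.19 was not called (adjusted p = 0.627), and its sign followed the NSC library, with 0.55 without passage 2 and -0.81 without passage 5. Each of these values rests on 1 NSC library, so the spread among NSC is not measured in it.

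Slc1a2 encodes GLT-1, the main glutamate transporter of mature astrocytes (ENSMUSG00000005089, chromosome 2, 102658659 to 102790784). Fibroblasts held 16 and 26 (tail tip, 1.0 years), 24 and 24 (tail tip, 2.5 years) and 10 and 10 (skin). In miNSC the lowest, median and highest values were 87, 979 and 1960, and NSC had 7518 at passage 2 and 2360 at passage 5. The 3 kinds of cell did not overlap. The gene rose in miNSC by 5.59 ± 0.17 in log2 over fibroblasts (adjusted p = 1.71e-14) and was lower than in NSC (log2 fold change -2.28 ± 0.28, adjusted p = 8.52e-06).

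Glul encodes glutamine synthetase, which makes glutamine from glutamate and ammonia (ENSMUSG00000026473, chromosome 1, 153899944 to 153909723). Its fibroblast values were 732 and 763, 724 and 778, and 612 and 648, in the same order of groups. In miNSC they ran from 3139 to 15161 with a median of 5059, and in NSC they were 8658 and 5604. No miNSC library reached down to the fibroblasts, and the ICR BKF line, at 15161 in both libraries, lay above both NSC libraries. Glul rose over fibroblasts by 2.92 ± 0.07 in log2 (adjusted p = 4.80e-16). Its difference from NSC, -0.38 ± 0.11 with overlap (adjusted p = 0.0133), was -0.06 without the NSC library of passage 2 (adjusted p = 0.727).

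Slc25a18 encodes a carrier that brings glutamate into mitochondria (ENSMUSG00000004902, chromosome 6, 120773578 to 120794336). It was listed at 1 and 0 in tail-tip fibroblasts of 1.0 years and at 0 in the other fibroblast libraries. The miNSC libraries held 1418 to 2716 with a median of 1841.5, and NSC held 1600 and 1120. Every miNSC library was above every fibroblast library, and the ranges of miNSC and NSC overlapped. The log2 fold change over fibroblasts was 10.70 ± 0.10 (adjusted p = 2.83e-21). The small excess over NSC, 0.48 ± 0.16 (adjusted p = 0.0267), lost its call without the NSC library of passage 5 (0.22, adjusted p = 0.410).

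Aldoc encodes aldolase C, the brain isoform of the glycolytic aldolase (ENSMUSG00000017390, chromosome 11, 78322968 to 78327781). Fibroblasts had 10 and 7, 16 and 14, and 3 and 5, again as tail tip at 1.0 years, tail tip at 2.5 years and skin. In miNSC the values ran from 3924 to 21805 with a median of 9021, and the NSC libraries had 5539 and 5846. The tail-tip 4F libraries, at 3924 to 5430, were below both NSC libraries, and all other miNSC libraries were above them. Aldoc rose over fibroblasts by 10.05 ± 0.08 in log2 (adjusted p = 5.80e-22) and was 0.75 ± 0.13 higher than in NSC (adjusted p = 0.000343).

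Aldh1l1 encodes the cytosolic 10-formyltetrahydrofolate dehydrogenase, a widely used astrocyte marker (ENSMUSG00000030088, chromosome 6, 90486427 to 90600203). Both NSC libraries stood at 15156. The fibroblasts held 166 and 154, 270 and 276, and 134 and 138, and the miNSC ran from 25 to 307 with a median of 71. All miNSC libraries were far below NSC, and most were below all fibroblasts. The Sox2-GFP embryonic KF line at 239 and 307 and single libraries of the tail-tip KMF line (152) and of passage 18 of the 4F line (170) reached the fibroblast range. Aldh1l1 was lower in miNSC than in fibroblasts (log2 fold change -1.32 ± 0.11, adjusted p = 9.06e-09) and than in NSC (-7.70 ± 0.18, adjusted p = 1.31e-14), while NSC exceeded fibroblasts by 6.38 ± 0.19 (adjusted p = 3.17e-14). When each group entered as its mean, 1 value a group, the difference from fibroblasts was not called (adjusted p = 0.0691).

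Fabp7 encodes the brain fatty acid binding protein of radial glia (ENSMUSG00000019874, chromosome 10, 57784881 to 57788450). Fibroblasts held 83 and 151, 201 and 214, and 251 and 216. The miNSC ran from 28060 to 92914 with a median of 42158, and NSC had 28060 at passage 2 and 92914 at passage 5. The gene stood at the highest value of the table in 8 libraries, the ICR lines, the Sox2-GFP embryonic BKF line, 1 tail-tip BKF library and the NSC of passage 5. It rose in miNSC by 8.13 ± 0.19 in log2 (adjusted p = 3.29e-16). The difference from NSC was -0.05 ± 0.30 (adjusted p = 0.924), with -0.91 without NSC passage 2 and 0.82 without passage 5, each resting on 1 NSC library.

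Agt encodes angiotensinogen, the secreted precursor of angiotensins, which astrocytes make in the brain (ENSMUSG00000031980, chromosome 8, 124556534 to 124569706, minus strand). It was listed at 0 in all tail-tip fibroblasts and at 17 and 12 in skin fibroblasts. In miNSC the lowest, median and highest values were 17, 557.5 and 3504, and NSC had 1400 and 434. The lowest miNSC library thus met the highest fibroblast one, and the NSC lay within the miNSC range. Agt rose over fibroblasts by 7.16 ± 0.17 in log2 (adjusted p = 4.91e-16). The mean in miNSC, 983 ± 1139 (SD, n = 20), was above that of NSC, 917 ± 683 (SD, n = 2), but the log2 fold change was -1.13 ± 0.27 (adjusted p = 0.00360), and -0.29 without the NSC library of passage 2 (adjusted p = 0.381).

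Sparcl1 encodes hevin, a secreted matrix protein of astrocytes (ENSMUSG00000029309, chromosome 5, 104079111 to 104113733, minus strand). Tail-tip fibroblasts held 106 and 93 at 1.0 years and 91 and 82 at 2.5 years, and skin fibroblasts 862 and 924. The miNSC ran from 286 to 8216 with a median of 2339.5, whereas NSC had 34 and 10. Every fibroblast and miNSC library was above the NSC pair, and the skin fibroblasts lay inside the miNSC range. Sparcl1 rose in miNSC over fibroblasts by 3.14 ± 0.14 (adjusted p = 3.05e-12) and was 6.48 ± 0.23 higher than in NSC in log2 (adjusted p = 3.40e-12), while NSC were below fibroblasts (-3.34 ± 0.25, adjusted p = 4.82e-09).

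S100b encodes a calcium-binding protein of astrocytes and oligodendrocyte precursors (ENSMUSG00000033208, chromosome 10, 76253853 to 76261159). Fibroblasts held 70 and 72, 66 and 47, and 44 and 24. The miNSC ran from 166 to 986 with a median of 317.5, and NSC had 153 and 92. The kinds of cell did not overlap, with NSC between fibroblasts and miNSC. The gene was higher in miNSC than in fibroblasts (log2 fold change 2.66 ± 0.12, adjusted p = 2.80e-12) and than in NSC (1.45 ± 0.19, adjusted p = 2.13e-05).

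**Figure D1:**
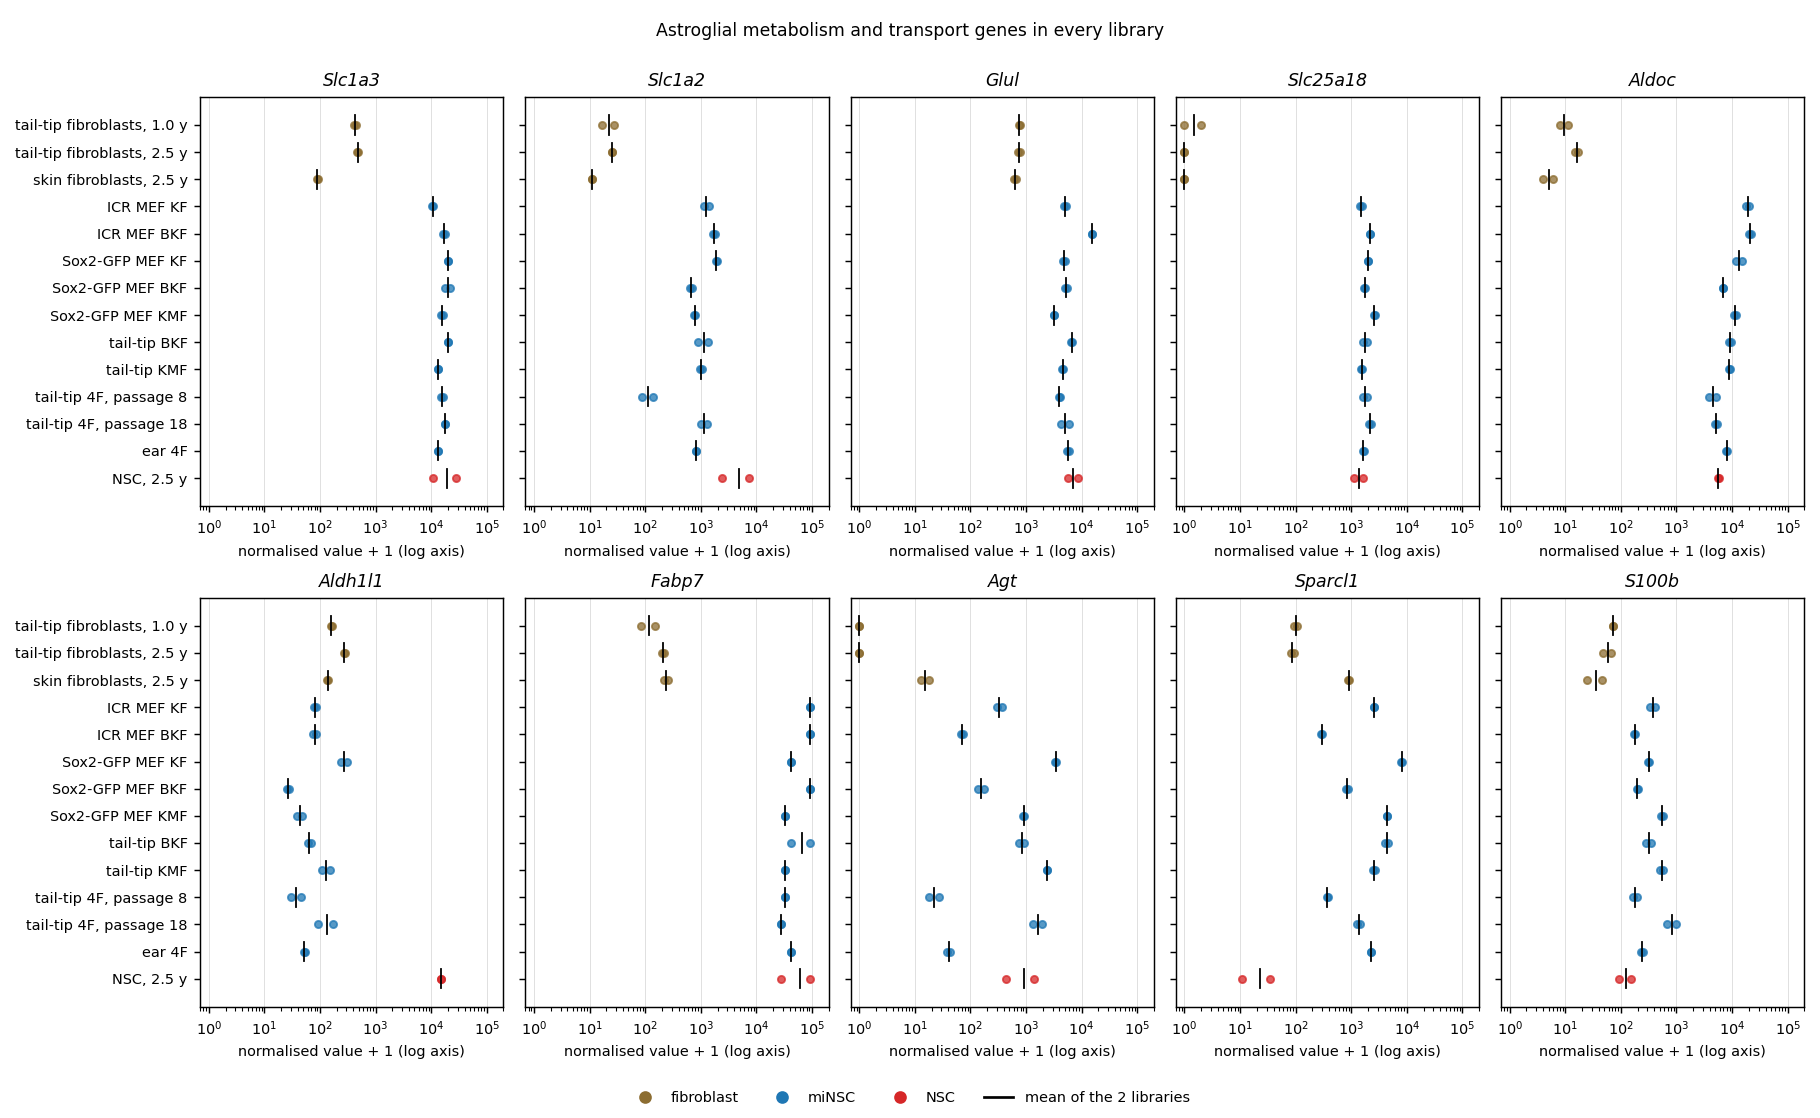
Normalised value + 1 on a log axis for each member in each of the 14 groups, with 1 point per library (brown fibroblasts, blue miNSC, red NSC) and a bar at the mean of 2 libraries. Aldh1l1 stands at 15156 in NSC and at 25 to 307 in miNSC, while Sparcl1 stands at 34 and 10 in NSC and at 286 to 8216 in miNSC.

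Across the members, 9 were higher and 1, Aldh1l1, was lower in miNSC than in fibroblasts, and 7 of the 10 did not overlap between the sides. Most genes moved in this contrast: 76.5% of all tested genes were called, 42.8% higher and 33.7% lower, and 31.9% did not overlap. The median log2 fold change was 5.76 over the members and 0.10 over all tested genes. These medians keep the sign, so rises and falls over all genes offset each other, and they do not compare sizes of change. Of all tested genes, 65.9% were called between NSC and fibroblasts. In that comparison 9 members were higher (34.9% of all) and 1, Sparcl1, lower (31.1% of all), and all 10 did not overlap (53.8% of all), with a median of 7.12 over the members and 0 over all. These comparisons share the fibroblast libraries. The log2 fold changes of genes at or near 0 in fibroblasts depend on the pseudocount: with 10 in place of 1 they were 7.53 for Slc25a18 and 4.84 for Agt.

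In the tail-tip lines, for which the starting tissue and age were sampled, 9 members were again higher and Aldh1l1 lower than in 1.0-year tail-tip fibroblasts, where 66.0% of all genes were called, 36.7% higher and 29.4% lower. For 9 members the lines did not overlap these fibroblasts, which held for 55.0% of all genes. The members' median log2 fold change was 5.06, against 0.10 over all genes. Agt was listed at 0 in these fibroblasts and at 17 to 2401 in the lines, so no fold is given for it. Aldh1l1, at 166 and 154 in the fibroblasts, was lower by a log2 fold change of -1.03 ± 0.19 with overlap (adjusted p = 0.000129).

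Against NSC, 4 members were higher in miNSC (Slc25a18, Aldoc, Sparcl1 and S100b), 4 were lower (Slc1a2, Glul, Aldh1l1 and Agt), and Slc1a3 and Fabp7 were not called. Of all tested genes 40.6% were called, 20.9% higher and 19.7% lower, so the members' share of 8 of 10 stands beside a median of -0.09 over them and 0.03 over all. The members that did not overlap were Slc1a2, Aldh1l1, Sparcl1 and S100b, 4 of 10, against 8.06% of all genes. The calls of Glul, Agt and Slc25a18 each rested on 1 NSC library, as given above. Of the 11 other astrocyte markers tested, 0 were higher and 9 lower in miNSC, with a median of -2.15.

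**Figure D2:**
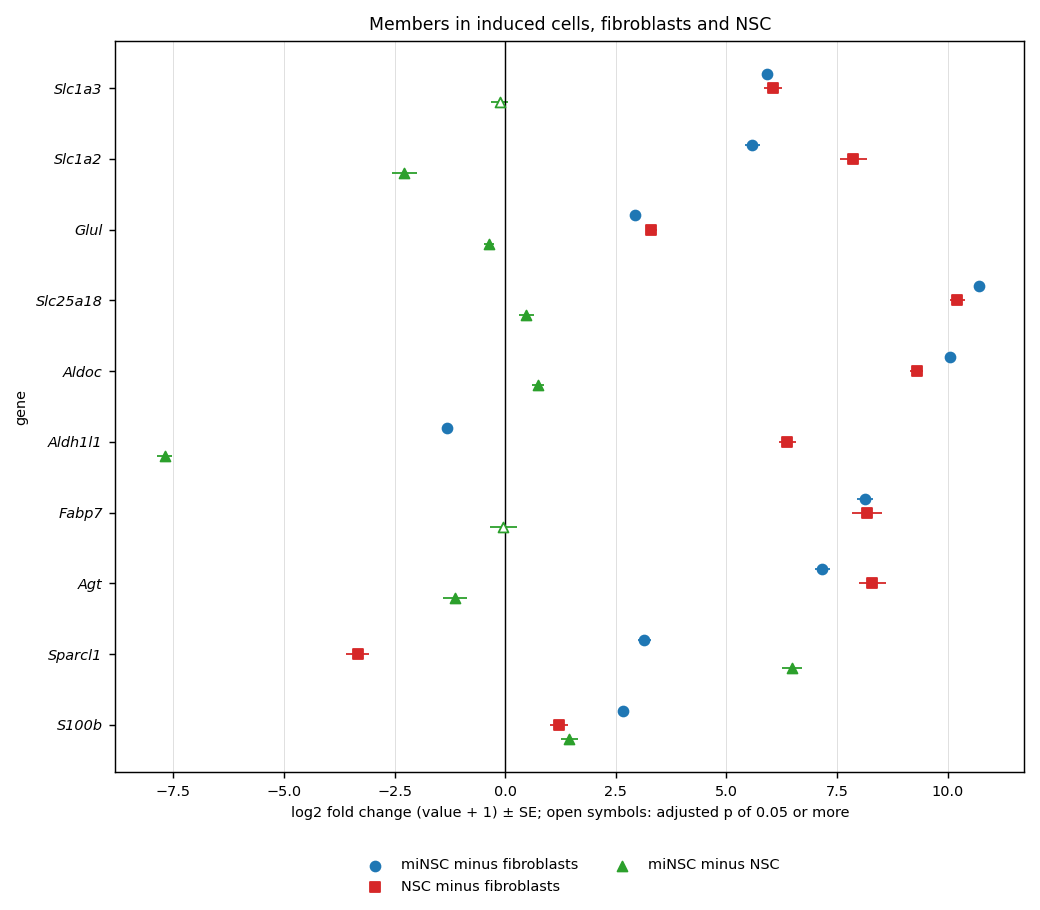
Log2 fold change of value + 1 with SE for each member in miNSC minus fibroblasts (blue circles), NSC minus fibroblasts (red squares) and miNSC minus NSC (green triangles), open symbols standing for adjusted p of 0.05 or more. Aldh1l1 lies at -7.70 and Sparcl1 at 6.48 between miNSC and NSC, while Slc1a3 (-0.13) and Fabp7 (-0.05) lie near 0.

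Passage was compared within the tail-tip 4F line, with 2 libraries at passage 8 and 2 at passage 18. A set of 5 members rose and 0 fell, and the other 5 were not called. Of all tested genes 35.1% were called, 17.5% higher and 17.6% lower. The members' median log2 fold change was 1.06, against 0.03 over all genes. At passage 18 the libraries of 9 members did not overlap those of passage 8, which held for 68.8% of all genes.

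Agt was at 26 and 17 at passage 8 and at 1326 and 1974 at passage 18. At the earlier passage it overlapped skin fibroblasts (17 and 12), and at the later its range overlapped that of NSC (1400 and 434). It rose by 6.20 ± 0.37 in log2 (adjusted p = 1.52e-08). Slc1a2, the astrocyte glutamate transporter, went from 87 and 138 to 992 and 1318 (3.37 ± 0.38, adjusted p = 6.70e-06). Passage 8 was the lowest of all miNSC groups for Slc1a2, and passage 18 overlapped the tail-tip BKF and KMF lines. S100b, the calcium-binding protein, went from 166 and 190 to 682 and 986 (2.20 ± 0.26, adjusted p = 1.20e-05), the highest group mean of all 14 groups for this gene.

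The matrix gene Sparcl1 went from 358 and 378 to 1286 and 1454 (log2 fold change 1.89 ± 0.31, adjusted p = 0.000217). Aldh1l1, the folate enzyme, went from 29 and 44 to 92 and 170 (1.78 ± 0.24, adjusted p = 3.53e-05), still far below 15156 in NSC. With the spread estimated from these 4 libraries alone, Aldh1l1 was not called (adjusted p = 0.104).

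The remaining members were not called with passage. Slc1a3 went from 15161 and 16127 to 17984 in both libraries (log2 fold change 0.20 ± 0.26, adjusted p = 0.587). Slc25a18 had 1638 and 1883 at passage 8 and 2106 and 2274 at passage 18 (0.32 ± 0.22, adjusted p = 0.279), and Aldoc had 3924 and 5088, then 4838 and 5430 (0.20 ± 0.18, adjusted p = 0.423). Fabp7 was at 32713 in both early and 28060 in both late libraries (-0.22 ± 0.41, adjusted p = 0.730). Glul had 3858 and 4040, then 4305 and 5848 (0.35 ± 0.15, adjusted p = 0.0881), and was called without the passage 18 library at 4305 (0.57, adjusted p = 0.0150).

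**Figure D3:**
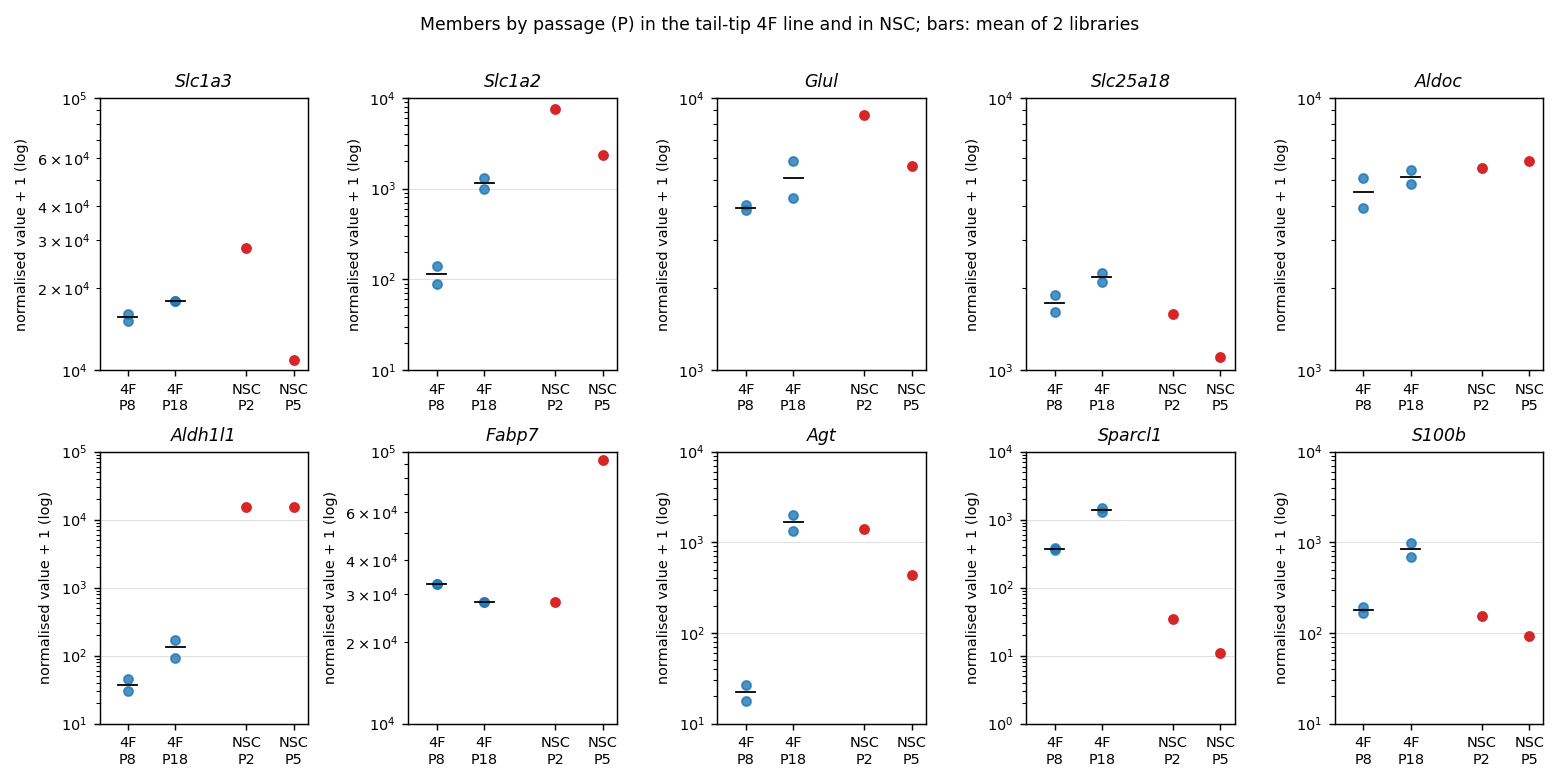
Normalised value + 1 on a log axis for the tail-tip 4F line at passage 8 and passage 18 (blue, 2 libraries each, bar at the mean) and in NSC at passages 2 and 5 (red, 1 library each), with a panel and axis range per member. Agt goes from 26 and 17 to 1326 and 1974 between the passages of the 4F line, while Slc25a18 stays between 1638 and 2274.

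Markers of other cell states differed between the passages too. The other astrocyte markers summed to 11106 to 15659 at passage 8 and 33079 to 46530 at passage 18, with 7 of 11 higher, 1 lower and a median of 1.96. Oligodendrocyte lineage markers summed to 1374 to 1947 and then 5991 to 7292, with 4 of 5 tested higher, 0 lower and 0 of 7 listed at 0. Neural stem cell markers summed to 49415 to 50854 and then 21807 to 24566, with 5 of 10 higher and 2 lower. Nr2e1 among them was at 0 at passage 8. Fibroblast markers summed to 1539 to 1946 and then 911 to 1029, with 1 of 10 higher, 2 lower and Pdgfrb at 0 at both passages. Their part in the rise of the 5 members was not tested.

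Pathway genes around the members were taken from lists of their own. Of 16 tested genes of glutamate, glutamine and GABA handling, 8 rose and 2 fell from passage 8 to 18, with a median of 0.77, beside 17.5% and 17.6% of all genes. Among them the glutamine transporter gene Slc38a3 (log2 fold change 1.56 ± 0.09, adjusted p = 6.02e-09), the glycine transporter gene Slc6a9 (1.66 ± 0.23, adjusted p = 5.03e-05) and the glutamate dehydrogenase gene Glud1 (1.09 ± 0.16, adjusted p = 0.000106) rose, and the mitochondrial aspartate transaminase gene Got2 fell (-0.54 ± 0.05, adjusted p = 5.38e-07). Of 16 genes of serine, glycine and folate metabolism, 2 rose and 7 fell, with a median of -0.55. The cytosolic folate enzyme genes Mthfd1 (-1.25 ± 0.20, adjusted p = 0.000149) and Shmt1 (-2.27 ± 0.37, adjusted p = 0.000229) and the thymidylate synthase gene Tyms (-2.21 ± 0.43, adjusted p = 0.000918) were among those that fell. Aldh1l1 and these folate genes thus moved in opposite directions. In the renin-angiotensin list, 3 of 7 rose and 1 fell: the receptor-associated protein gene Agtrap rose (1.97 ± 0.22, adjusted p = 5.74e-06), as did the protease genes Ctsd (0.69 ± 0.19, adjusted p = 0.00883) and Lnpep (0.39 ± 0.12, adjusted p = 0.0197), and the receptor gene Agtr1a fell (-3.75 ± 1.27, adjusted p = 0.0302). Agtr1a was low throughout, at 0 to 32 over all miNSC libraries, so its fold change depends on the pseudocount. Of 16 genes of astroglial lipid metabolism and lactate and glucose transport, 5 rose and 5 fell. The apolipoprotein gene Apoe (2.83 ± 0.36, adjusted p = 2.47e-05), the glycogen genes Ppp1r3c (2.82 ± 0.29, adjusted p = 3.24e-06) and Pygb (1.87 ± 0.23, adjusted p = 2.03e-05) and the astrocyte gene Ndrg2 (3.29 ± 0.49, adjusted p = 9.47e-05) rose.

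Adding B to KF was compared in embryonic lines of both strains. In the ICR lines 1 member was higher with B and 3 were lower, where 13.1% of all tested genes were called, 6.69% higher and 6.42% lower. The libraries of 7 members did not overlap, against 55.2% of all genes. Glul, the glutamine synthetase gene, stood at 15161 in both BKF libraries and at 5163 and 4756 in KF (log2 fold change 1.61 ± 0.15, adjusted p = 1.43e-06). Sparcl1 stood at 286 and 298 in BKF and at 2547 and 2585 in KF (-3.13 ± 0.31, adjusted p = 2.88e-06), and Agt at 74 and 67 against 294 and 364 (-2.20 ± 0.37, adjusted p = 0.000562). None of these 3 overlapped, and the secreted proteins were both lower with B. S100b had 178 and 174 against 339 and 418 (-1.09 ± 0.26, adjusted p = 0.00958), a call lost without either BKF library or the KF library at 418 (adjusted p of 0.0531, 0.0629 and 0.0931).

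The other members were not called in ICR. Slc1a3 held 17984 and 16127 in BKF and 10340 and 10893 in KF (log2 fold change 0.68 ± 0.26, adjusted p = 0.101). Slc25a18 held 2203 and 2213 against 1418 and 1539 (0.58 ± 0.22, adjusted p = 0.102), and Slc1a2 1770 and 1683 against 1379 and 1136 (0.46 ± 0.38, adjusted p = 0.563). For all 3 transporters each BKF library was above each KF library, but the differences were not called. Aldoc (21805 and 20138 against 20138 and 17981), Aldh1l1 (75 and 84 against 78 and 84) and Fabp7 (92914 in all 4) overlapped. Summed other astrocyte markers were 26156 to 26197 in BKF and 21290 to 21460 in KF, and fibroblast markers 568 to 699 in BKF and 3593 to 3768 in KF, with 7 of 10 fibroblast markers lower in BKF. Their part in these differences was not tested.

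In the Sox2-GFP embryonic lines adding B went with 1 member higher and 6 lower, where 37.7% of all genes were called, 19.2% higher and 18.5% lower. The members' median log2 fold change was -0.82, and 0.02 over all genes, and 9 members did not overlap (71.7% of all genes). Agt stood at 136 and 174 in BKF and at 3366 and 3504 in KF (-4.47 ± 0.37, adjusted p = 2.13e-07), and Sparcl1 at 812 and 858 against 7992 and 8216 (-3.28 ± 0.31, adjusted p = 8.83e-07). Aldh1l1 stood at 25 and 27 against 239 and 307 (-3.33 ± 0.24, adjusted p = 4.70e-08). The KF line thus had the highest level of all miNSC groups for these 3 genes. Slc1a2 held 628 and 688 against 1960 and 1855 (-1.54 ± 0.38, adjusted p = 0.00418), and Aldoc 6859 and 6986 against 11648 and 15156 (-0.94 ± 0.18, adjusted p = 0.000648).

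Calls of S100b, at 190 and 201 against 325 and 310 (-0.70 ± 0.26, adjusted p = 0.0461), and of Fabp7, at 92914 in both BKF and 42158 in both KF libraries (1.14 ± 0.41, adjusted p = 0.0367), were lost without any 1 of the 4 libraries. Without each of them in turn, 5 members were called. Slc1a3 (17984 and 21808 against 20143 in both), Glul (5090 and 5432 against 4570 and 5028) and Slc25a18 (1800 and 1683 against 2012 and 2001) were not called. The other astrocyte markers summed to 18737 to 19122 in BKF and 37615 to 37733 in KF, with 1 of 11 higher and 7 lower. That sum moved with the members, and its part was not tested.

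The effect of B differed between the strains for Slc1a2, Glul, Aldoc, Aldh1l1 and Agt, by a test of the difference itself, which called 32.1% of all genes, 15.8% higher and 16.4% lower. The log2 fold change of B in ICR minus that in Sox2-GFP was 3.31 ± 0.33 for Aldh1l1 (adjusted p = 2.11e-06), 2.27 ± 0.52 for Agt (adjusted p = 0.00322), 1.998 ± 0.53 for Slc1a2 (adjusted p = 0.00862), 1.48 ± 0.21 for Glul (adjusted p = 6.48e-05) and 1.08 ± 0.25 for Aldoc (adjusted p = 0.00392). Aldh1l1, Slc1a2 and Aldoc were therefore lower with B in the Sox2-GFP lines and not called in ICR, while Glul was higher in ICR. For Sparcl1 the difference was 0.15 ± 0.44 (adjusted p = 0.851), with -3.13 in ICR and -3.28 in Sox2-GFP. The labels do not say whether the libraries of a group come from 1 line or several, so an effect of strain and one of the picked colonies cannot be told apart.

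Adding M to KF in Sox2-GFP embryonic cells went with 1 member higher and 5 lower, where 39.1% of all genes were called, 19.9% higher and 19.2% lower. The libraries of 9 members did not overlap (71.1% of all genes). This comparison shares the KF libraries with that of B. Aldh1l1 held 38 and 46 in KMF (against 239 and 307 in KF; log2 fold change -2.67 ± 0.24, adjusted p = 3.39e-07), Agt 878 and 928 (-1.93 ± 0.37, adjusted p = 0.000607), and Glul 3139 in both libraries (-0.61 ± 0.15, adjusted p = 0.00408). None of the 3 overlapped KF. Slc1a2 held 786 and 755 (-1.31 ± 0.38, adjusted p = 0.0112), and lost its call without the KF library at 1960 or the KMF library at 755 (adjusted p of 0.0580 and 0.0556). Sparcl1, at 4355 and 4412 (-0.89 ± 0.31, adjusted p = 0.0326), and S100b, at 577 and 521 (0.79 ± 0.26, adjusted p = 0.0249), lost theirs without any 1 of the 4 libraries. Without each library in turn, 3 to 4 members were called. Aldoc (10890 and 11648), Slc1a3 (15161 and 16127), Slc25a18 (2520 and 2716) and Fabp7 (32713 in both) were not called. The other astrocyte markers summed to 15618 to 16048 in KMF, with 0 of 11 higher and 8 lower than in KF, and their part was not tested.

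**Figure D4:**
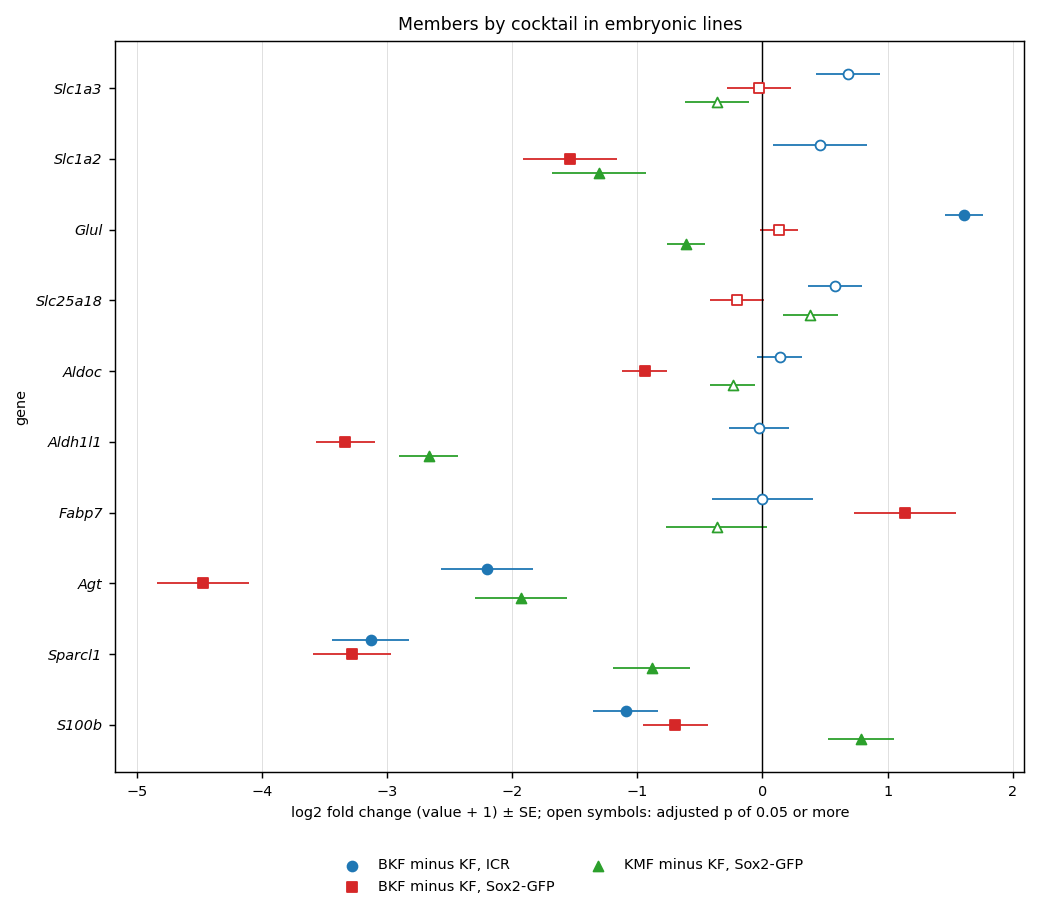
Log2 fold change of value + 1 with SE for each member on adding B to KF in ICR lines (blue circles), adding B to KF in Sox2-GFP embryonic lines (red squares) and adding M to KF in Sox2-GFP embryonic lines (green triangles), open symbols standing for adjusted p of 0.05 or more. Sparcl1 lies at -3.13 and -3.28 with B in the strains, while Aldh1l1 lies at -0.03 in ICR and -3.33 in Sox2-GFP.

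BKF and KMF were also set against each other in both tissues of origin. In the embryonic lines 2 members were higher in BKF and 4 lower, where 10.3% of all genes were called, 4.96% higher and 5.30% lower. All 10 members were without overlap, as were 60.8% of all genes. Agt (-2.55 ± 0.37, adjusted p = 0.000276), Sparcl1 (-2.39 ± 0.31, adjusted p = 9.93e-05) and S100b (-1.48 ± 0.26, adjusted p = 0.00141) were lower and Glul (0.74 ± 0.15, adjusted p = 0.00402) higher, as log2 fold changes. Aldoc (-0.70 ± 0.18, adjusted p = 0.0194) and Fabp7 (1.51 ± 0.41, adjusted p = 0.0256) lost their calls without any 1 of the 4 libraries. Slc1a3, Slc1a2, Slc25a18 and Aldh1l1 were not called.

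In the tail-tip lines, where 13% of all genes were called (6.75% higher and 6.22% lower), 1 member was higher in BKF and 2 were lower. The libraries of 8 members did not overlap, against 54.9% of all genes. Agt held 751 and 938 in BKF and 2372 and 2401 in KMF (log2 fold change -1.51 ± 0.37, adjusted p = 0.0133). Aldh1l1 held 60 and 67 against 108 and 152 (-1.004 ± 0.24, adjusted p = 0.0106), and Glul 6468 and 6702 against 4635 and 4472 (0.53 ± 0.15, adjusted p = 0.0287). Although none of these overlapped, 0 to 2 members were called without each library in turn: Glul lost its call without any 1 of the 4, Agt without the BKF library at 751 or either KMF library, and Aldh1l1 without the KMF library at 152. Sparcl1 held 4077 and 4568 against 2445 and 2704 (0.75 ± 0.31, adjusted p = 0.135). The cocktail difference of Sparcl1 was therefore of opposite sign in embryonic and tail-tip lines, and the test of that difference called it (-3.14 ± 0.44, adjusted p = 0.000202), the 1 member called where 13.1% of all genes were, 6.33% higher and 6.77% lower.

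S100b had 286 and 344 in tail-tip BKF and 580 and 506 in KMF (log2 fold change -0.79 ± 0.26, adjusted p = 0.0597). Slc1a2 had 1362 and 894 against 966 and 1048, Slc1a3 20143 against 13046 in both libraries of each, Slc25a18 1608 and 1918 against 1580 and 1499, Aldoc 8894 and 9706 against 9148 and 8657, and Fabp7 42158 and 92914 against 32713 in both. None of these were called.

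Embryonic origin, as BKF and KMF lines of Sox2-GFP cells against those of the tail tip, went with 0 members higher and 4 lower, where 33.0% of all genes were called, 17.2% higher and 15.8% lower. Agt (log2 fold change -1.92 ± 0.26, adjusted p = 3.26e-05), Aldh1l1 (-1.42 ± 0.17, adjusted p = 7.99e-06), Sparcl1 (-0.80 ± 0.22, adjusted p = 0.00993) and Glul (-0.43 ± 0.11, adjusted p = 0.00499) were lower in embryonic lines. For Sparcl1 this is an average over cocktails that went opposite ways. Embryonic BKF was lower, at 812 and 858 against 4077 and 4568 in tail-tip BKF. Embryonic KMF was higher, at 4355 and 4412 against 2445 and 2704 in tail-tip KMF. The members without overlap were 2, Aldh1l1 at 25 to 46 in embryonic and 60 to 152 in tail-tip lines and Slc1a2 at 628 to 786 and 894 to 1362, against 24.3% of all genes. Slc1a2 was not called (log2 fold change -0.57 ± 0.27, adjusted p = 0.120), but was when fitted on only the groups compared (adjusted p = 0.0358), as were Slc25a18 and S100b (adjusted p of 0.0132 and 0.0380). Slc1a3, Aldoc and Fabp7 were not called either way. Passages of these lines are not given, and the members that rose with passage in the 4F line include 3 of these 4. Origin and passage cannot be told apart here.

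ICR against Sox2-GFP strain, over matched BKF and KF embryonic lines, went with 2 members higher and 3 lower, where 38.4% of all genes were called, 19.3% higher and 19.1% lower. Aldoc, at 17981 to 21805 in ICR and 6859 to 15156 in Sox2-GFP lines, was the 1 member without overlap (19.9% of all genes) (log2 fold change 1.06 ± 0.13, adjusted p = 9.75e-06). Glul was higher too (0.79 ± 0.11, adjusted p = 2.92e-05), and Agt (-2.25 ± 0.26, adjusted p = 6.50e-06) and Sparcl1 (-1.59 ± 0.22, adjusted p = 3.69e-05) were lower, all with overlap. The Glul difference lay in the BKF lines, at 15161 in both ICR and at 5090 and 5432 in the Sox2-GFP libraries. Its KF libraries overlapped, at 5163 and 4756 in ICR and 4570 and 5028 in Sox2-GFP. Slc1a3 (-0.57 ± 0.18, adjusted p = 0.0206) lost its call without ICR BKF replicate 2, ICR KF replicate 1, Sox2-GFP BKF replicate 2 or Sox2-GFP KF replicate 1, with adjusted p from 0.0501 to 0.0764. Slc1a2, Slc25a18, Aldh1l1, Fabp7 and S100b were not called.

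The tail-tip 4F line, both passages together, was set against the tail-tip BKF and KMF lines. Against BKF 0 members were higher and 6 lower, where 21.3% of all genes were called (11% higher and 10.2% lower). Against KMF 0 were higher and 5 lower, where 26.7% were called (13.9% higher and 12.7% lower). In each, 5 members did not overlap (24.1% and 32.5% of all genes). These comparisons share the 4F libraries. Sparcl1 was lower than in BKF (log2 fold change -2.60 ± 0.27, adjusted p = 4.79e-06) and than in KMF (-1.86 ± 0.27, adjusted p = 8.72e-05), and Aldoc likewise (-0.96 ± 0.16, adjusted p = 0.000388, and -0.89 ± 0.16, adjusted p = 0.000456), neither with overlap. Agt (-2.15 ± 0.32, adjusted p = 0.000168, and -3.66 ± 0.32, adjusted p = 4.99e-07) and Slc1a2 (-1.63 ± 0.33, adjusted p = 0.00192, and -1.50 ± 0.33, adjusted p = 0.00262) were lower too. At passage 18, however, both Agt libraries, at 1326 and 1974, were above both BKF libraries, and those of Slc1a2 lay within the BKF range. Slc1a2 at passage 18 (992 and 1318) also overlapped KMF (966 and 1048), while Agt stayed below KMF (2372 and 2401). With passage 8 alone the differences from BKF were -5.25 for Agt and -3.32 for Slc1a2.

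Glul (-0.56 ± 0.13, adjusted p = 0.00541) and Fabp7 (-1.05 ± 0.35, adjusted p = 0.0452) were lower in 4F than in BKF, and Aldh1l1 (-0.92 ± 0.21, adjusted p = 0.00315) lower than in KMF. The Aldh1l1 difference lay at passage 8 (29 and 44). Passage 18 (92 and 170) overlapped KMF (108 and 152). Fabp7 lost its call without any 1 of the 4F libraries or without BKF replicate 2 (-0.48, adjusted p = 0.559), Glul without BKF replicate 2 (adjusted p = 0.0571), and Aldh1l1 without KMF replicate 2 (adjusted p = 0.0919). With passage 8 alone, Aldh1l1 (-0.81, adjusted p = 0.0189) and S100b (-0.82, adjusted p = 0.0300) were lower than in BKF, where they had been 0.08 and 0.28 over both passages. Slc1a3 and Slc25a18 were not called against either line, S100b was not called against either over both passages, and Glul and Fabp7 were not called against KMF. With passage 8 alone, S100b was also lower than in KMF (-1.60, adjusted p = 0.000169). At passage 18 its libraries (682 and 986) were above those of KMF (580 and 506).

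Ear and tail-tip origin were compared in 4F lines, with 3 members higher and 2 lower in the ear line, where 28.6% of all genes were called, 14.1% higher and 14.5% lower. The ear line held 2234 and 2224 for Sparcl1 (log2 fold change 1.65 ± 0.27, adjusted p = 0.000246), 7798 and 8216 for Aldoc (0.74 ± 0.16, adjusted p = 0.00204), 835 and 819 for Slc1a2 (1.22 ± 0.33, adjusted p = 0.0102), 37 and 42 for Agt (-2.22 ± 0.32, adjusted p = 7.73e-05) and 248 and 230 for S100b (-0.68 ± 0.23, adjusted p = 0.0346). Of these, Sparcl1 and Aldoc did not overlap, and in all 4 members did not, against 35.1% of all genes. The signs of Agt and S100b held against both passages together, and against passage 8 alone they were 0.87 and 0.43, neither called (adjusted p of 0.0943 and 0.262). For Slc1a2 both ear libraries were above those of passage 8 (87 and 138) but below those of passage 18 (992 and 1318). Slc1a2 lost its call without either ear library (adjusted p of 0.0745 and 0.0655), and S100b without either ear library, passage 18 replicate 2 or passage 8 replicate 2 (adjusted p from 0.0810 to 0.185). The count without 1 library ran from 3 to 6 members. The ear line had 50 to 52 for Aldh1l1, 13046 in both libraries for Slc1a3, 5432 and 5848 for Glul, 1594 and 1692 for Slc25a18 and 42158 in both for Fabp7, none of them called.

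In tail-tip fibroblasts, 2.5 against 1.0 years went with 2 members higher and 0 lower, where 11% of all genes were called, 5.63% higher and 5.41% lower. The libraries of 6 members did not overlap, against 62.4% of all genes. Aldoc (log2 fold change 0.77 ± 0.18, adjusted p = 0.0117) and Aldh1l1 (0.77 ± 0.24, adjusted p = 0.0485) were the members called. Leaving out each of the 4 libraries in turn left 0 to 1 called: Aldh1l1 lost its call each time, and Aldoc without replicate 2 of 1.0 years or replicate 1 of 2.5 years. Slc1a3, Slc1a2, Glul, Slc25a18, Fabp7, Agt, Sparcl1 and S100b were not called. Without 1.0-year replicate 2, Slc25a18 was called instead (adjusted p = 0.00132), with the remaining libraries at 1, 0 and 0.

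Within miNSC the members varied to very different extents. Slc1a3 and Slc25a18 spanned the least, with group means from 10616.5 to 20143 and from 1478.5 to 2618, which is 1.90-fold and 1.77-fold. Of 11 comparisons among induced lines, Slc1a3 was called in 1 and Slc25a18 in 0. These counts depended on the processing: fitted on only the groups compared, Slc1a3 was called in 5 and Slc25a18 in 4, and with a pseudocount of 10 Slc25a18 was called in 5. With the replicate number as a block and the NSC libraries left out, Slc1a3 was called in 9 and Slc25a18 in 0. Group means of Agt ran from 21.5 at passage 8 of the tail-tip 4F line to 3435 in the Sox2-GFP embryonic KF line, 159.8-fold, and Agt was called in 11. Sparcl1 ran from 292 to 8104 (27.8-fold, called in 10), Slc1a2 from 112.5 to 1907.5 (17.0-fold, called in 6) and Aldh1l1 from 26 to 273 (10.5-fold, called in 6). Glul (4.83-fold, called in 7), S100b (4.74-fold, called in 6), Aldoc (4.65-fold, called in 6) and Fabp7 (3.31-fold with ties, called in 3) lay between. The Sox2-GFP embryonic KF line was the highest miNSC group for Agt, Sparcl1, Slc1a2 and Aldh1l1.

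The order of the 14 groups was read from their means, with 13 pairs of neighbours per gene. The ranges of neighbours overlapped in 2 pairs for Sparcl1, in 4 for Slc1a2, Aldoc and S100b, in 5 for Aldh1l1 and Agt, in 7 for Glul and in 8 for Slc1a3, Slc25a18 and Fabp7. For Agt the order upwards was tail-tip fibroblasts of both ages, skin fibroblasts, 4F at passage 8, ear 4F, ICR BKF, Sox2-GFP embryonic BKF, ICR KF, tail-tip BKF, Sox2-GFP embryonic KMF, NSC, 4F at passage 18, tail-tip KMF and Sox2-GFP embryonic KF. Skin fibroblasts and passage 8 overlapped, as did tail-tip BKF, embryonic KMF, NSC and passage 18 as neighbours. For Aldh1l1 it was Sox2-GFP embryonic BKF, 4F at passage 8, embryonic KMF, ear 4F, tail-tip BKF, ICR BKF, ICR KF, tail-tip KMF, 4F at passage 18, skin fibroblasts, tail-tip fibroblasts at 1.0 and 2.5 years, Sox2-GFP embryonic KF and NSC.

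Over the 10 miNSC group means, Pearson correlations of log2(value + 1) were computed for all 45 pairs of members as a description. The groups share the normalisation and in part the cocktail, strain and tissue of origin, and the passages of the 4F line are the same line. The median was 0.18, 9 pairs were over 0.5 and 1, Fabp7 with S100b, was under -0.5. Agt correlated with S100b (0.77), Sparcl1 (0.73) and Aldh1l1 (0.69), and Slc1a2 with Aldoc (0.69) and Aldh1l1 (0.63). The genes whose pattern over these 10 groups was most like a member's, among 6097 genes with a span of at least 1, were Abcc5 for Agt (r = 0.95), Axl for Slc1a2 (0.95), Pde2a for S100b (0.96), Tctn1 for Aldh1l1 (0.95), Kif1a for Aldoc (0.94), Kcnj16 for Glul (0.93), Tsc22d1 for Sparcl1 (0.91) and Abca13 for Fabp7 (0.91). With so many candidates and 10 points, high values are common, and no test was made.

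Paralogs of the members mostly went the other way. Of 26 listed, 22 were in the table and 21 were tested. Against fibroblasts 5 were higher and 16 lower in miNSC, with a median log2 fold change of -2.74, beside 42.8% and 33.7% of all genes. The S100 genes S100a6 (7992 to 11648 in fibroblasts, 0 to 4 in miNSC; -12.49 ± 0.20, adjusted p = 2.19e-18) and S100a11 (-5.42 ± 0.15, adjusted p = 3.53e-15), fell, as S100b rose. The neutral amino acid transporter gene Slc1a5 (-3.68 ± 0.20, adjusted p = 4.05e-11) and the glutamate transporter gene Slc1a6 (-6.56 ± 0.32, adjusted p = 8.10e-12) fell. Sparc, the matrix gene related to Sparcl1 (28060 to 32713 in fibroblasts, 3552 to 24587 in miNSC), fell by a smaller measure (-1.85 ± 0.10, adjusted p = 2.38e-11), and its relative Smoc1 rose (9.39 ± 0.20, adjusted p = 7.20e-17).

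The mitochondrial paralog of Aldh1l1, Aldh1l2, held 812 to 2488 in fibroblasts, 114 to 1412 in miNSC and 557 and 1140 in NSC. It was lower in miNSC than in fibroblasts (log2 fold change -2.29 ± 0.14, adjusted p = 1.04e-10) and than in NSC (-1.44 ± 0.22, adjusted p = 6.99e-05), both with overlap, and rose with passage (2.39 ± 0.29, adjusted p = 1.64e-05). Aldoa, the aldolase of most tissues, stayed abundant in all cells, at 8418 to 15161 in fibroblasts and 6861 to 32716 in miNSC (0.60 ± 0.13 with overlap, adjusted p = 0.000581). Fabp5, a fatty acid binding protein of skin and brain, rose (1.63 ± 0.08, adjusted p = 7.77e-12), while Fabp4 of adipocytes (-6.91 ± 1.01, adjusted p = 9.87e-06) and Fabp3 of muscle (-2.74 ± 0.20, adjusted p = 1.38e-09) fell.

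Other genes of the members' pathways were counted against fibroblasts, where 42.8% of all genes were higher and 33.7% lower, with a median of 0.10. In the glutamate, glutamine and GABA list 8 of 16 were higher and 6 lower in miNSC, with a median of 1.14, and in the serine, glycine and folate list 8 of 16 were higher and 5 lower, with a median of 0.36. Both lists' shares lie near those of all genes. The glutamine transporter gene Slc38a3 was listed at 0 in all fibroblasts and at 624 to 4471 in miNSC. The glycine cleavage genes Gldc (log2 fold change 7.57 ± 0.15, adjusted p = 2.74e-17) and Amt (3.79 ± 0.08, adjusted p = 1.65e-16) of the folate list rose. In the renin-angiotensin list 0 of 7 were higher and 6 lower, with a median of -2.17, while Agt itself rose. The receptor gene Agtr1a held 46 to 306 in fibroblasts, 0 to 32 in miNSC and 4 to 15 in NSC (-3.87 ± 0.59, adjusted p = 1.50e-05), and Agtrap fell (-2.55 ± 0.10, adjusted p = 4.15e-13). In the astroglial lipid and energy list 11 of 16 were higher and 3 lower, with a median of 1.77, among them Acsbg1 (8.83 ± 0.11, adjusted p = 8.98e-20) of fatty acid activation and Apoe (7.30 ± 0.17, adjusted p = 3.09e-16).

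With B or M added to KF in the Sox2-GFP embryonic lines, 9 and 10 of 16 genes of the serine, glycine and folate list were higher and 1 was lower in each, comparisons that share the KF libraries. Of all genes, 19.2% were higher and 18.5% lower with B, and 19.9% and 19.2% with M. The folate carrier gene Slc19a1 was higher with B (2.57 ± 0.28, adjusted p = 3.16e-06) and with M (2.53 ± 0.28, adjusted p = 2.97e-06), as was Shmt1 (3.07 ± 0.37, adjusted p = 1.07e-05, and 3.13 ± 0.37, adjusted p = 7.31e-06). Aldh1l1, the folate enzyme among the members, was lower in both comparisons. Apoe was lower with B (-3.92 ± 0.36, adjusted p = 6.97e-07) and with M (-3.71 ± 0.36, adjusted p = 9.47e-07).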

How the data were processed

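Total RNA was extracted with Trizol, mRNA was enriched on oligo(dT) beads and copied with random hexamers, and libraries were sequenced on Illumina instruments, per the labels' protocols. RSEM, Bowtie2 2.0 and the mm10 build are named in the submitters' processing notes. The deposited table holds whole-number scores per gene that the authors had normalised to an identical set of values in every library. The normalisation step is not given in the sources used here, and whether reads were counted by strand is not given either. Reads shared by near-identical copies could therefore not be judged, and the depth and any counting interval are unknown.

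Values entered as log2(value + 1), for genes whose mean over the 28 libraries was 10 or more. A limma model (3.58.1, with statmod 1.5.0 in R 4.3.3) was fitted to all 14 groups with a trended variance prior, so that groups of 2 libraries share an estimate of spread. Contrasts between groups were adjusted over all genes by Benjamini-Hochberg at a threshold of 0.05, two-sided. The fit was tested on simulated data. Python 3.11.15, numpy 2.4.6, pandas 2.3.3 and matplotlib 3.10.9 served for the rest. Gene positions are those of GENCODE M21 on GRCm38, where all 17295 genes were found, and promoter windows are from RefSeq on GRCm38.p6.

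All 10 members were to be named in every comparison. Some are given there only within a count of members called or not called. From each related list at most 4 genes per comparison, those of smallest adjusted p, could be named, and all paralogs. Up to 3 genes of like pattern were sought per member, among genes with a mean of at least 100 in a miNSC group and a span of at least 1 in log2. The members and lists were chosen with earlier results of these data known. Alternatives were another pseudocount, filter, variance prior, set of samples or replicate block, and leaving out each library in turn. Quantile normalisation was also applied, to values that the authors had already normalised to an identical set.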

Additional observations from a re-analysis of the deposited data

Results flagged for a closer look

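The effect of adding B to KF differed between the ICR and Sox2-GFP embryonic lines for 5 members, by a test of the difference itself in limma with Benjamini-Hochberg adjustment. The effect in ICR minus that in Sox2-GFP, in log2, was 3.31 for Aldh1l1, the folate enzyme, at -0.03 and -3.33 in the strains. It was 2.27 for Agt, at -2.20 and -4.47, and 1.998 for Slc1a2, at 0.46 and -1.54. It was 1.48 for Glul, at 1.61 and 0.13, and 1.08 for Aldoc, at 0.14 and -0.94. Both libraries of each line lay on the same side of the other cocktail in the called effects of these genes.

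The difference between BKF and KMF depended on the tissue of origin for Sparcl1, with -2.39 in Sox2-GFP embryonic lines and 0.75 in tail-tip lines, a difference of -3.14 (adjusted p = 0.000202). Embryonic BKF held 812 and 858 and embryonic KMF 4355 and 4412, whereas tail-tip BKF held 4077 and 4568 and tail-tip KMF 2445 and 2704.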

How the results depend on the processing

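The number of members called kept within 1.5 times its value under all alternatives for the comparisons with fibroblasts, with NSC, of passage, of B in both strains, of BKF with KMF in embryonic lines, of strain and of 4F with KMF. Without filter, with a robust prior and without a trend, all 144 member results kept direction and call. With a pseudocount of 10, BKF against KMF in tail-tip lines had 5 members called in place of 3, and the interaction of cocktail and origin 3 in place of 1. With a mean of at least 100 that interaction had 2, and with quantile normalisation 2, where fibroblast age had 1 in place of 2. Quantile normalisation could change little, because every library already held the same distinct values. It is no check on the authors' own normalisation. Fitted on only the groups compared, origin had 7 in place of 4, BKF against KMF in tail-tip lines 0 in place of 3, 4F against BKF 3 in place of 6, fibroblast age 1, the interaction of B and strain 8 in place of 5 and that of cocktail and origin 4. Among the 11 comparisons of induced lines, that fit called Aldh1l1 in 3 in place of 6, Fabp7 in 5 in place of 3, Slc1a3 in 5 in place of 1 and Slc25a18 in 4 in place of 0. The cause was not tested.

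Replicate numbers did not pair the libraries: over 78 pairs of groups the correlation of the deviations of same-numbered libraries ran from -0.05 to 0.07, and 0 pairs were over 0.1. A fit with the replicate number as a block also left out the NSC libraries. In it, BKF against KMF in tail-tip lines had 7 members called, the interaction of B and strain 8 and that of cocktail and origin 2. Among the 11 comparisons of induced lines, that fit called Slc1a3 in 9 in place of 1, Fabp7 in 5 in place of 3, Glul in 9 in place of 7 and Slc25a18 in 0, as in the main fit. The block could not be fitted for NSC, whose labels give passages. The NSC pair, 28063 and 10893 for Slc1a3, enters the shared spread of the main fit. Effects of the block and of leaving out NSC cannot be told apart here.

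With passage 8 alone, signs turned for Aldh1l1 (-0.81 in place of 0.08) and S100b (-0.82 in place of 0.28) in 4F against BKF, and for Aldh1l1 (0.50 in place of -0.39), Agt (0.87 in place of -2.22) and S100b (0.43 in place of -0.68) in ear against tail-tip 4F. Without 1 library in turn, ear against tail-tip 4F had 3 to 6 members called, KMF against KF 3 to 4, fibroblast age 0 to 1 and BKF against KMF in tail-tip lines 0 to 2. Between miNSC and NSC, Slc1a3 ran from -0.81 to 0.55 and Fabp7 from -0.91 to 0.82, and Aldh1l1 in 4F against BKF from -0.14 to 0.30. Among member results without 1 library, 1157 kept direction and call, 63 lost and 7 gained a call and 5 turned sign.

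All tested genes called without 1 library numbered 1307 to 1474 in place of 2134 for B in ICR, 868 to 982 in place of 1670 for BKF against KMF in embryonic lines, 894 to 2867 in place of 2110 in tail-tip lines, 852 to 1257 in place of 1797 for fibroblast age, 2637 to 4541 in place of 4658 for ear against tail-tip 4F, 1940 to 3262 in place of 3460 for 4F against BKF, 2493 to 4133 in place of 4339 for 4F against KMF and 1355 to 2802 in place of 2132 for the interaction of cocktail and origin. On only the groups compared they numbered 2169 in place of 5716 for passage, 430 for BKF against KMF in tail-tip lines and 1052 for 4F against BKF. With the replicate block and without the NSC libraries they numbered 2710 for BKF against KMF in embryonic lines, 3528 in tail-tip lines, 2978 for fibroblast age and 3531 for the interaction of cocktail and origin.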
